A study of Mus musculus with 6 samples.

Results

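The 8 genes described here, Mbp, Pmp22, Ngfr, Sox10, S100b, Prx, Mag and Egr2, are markers of Schwann cells and of the myelin that these cells make. They were followed in tongue tissue of 6 mice on single-colour Agilent mouse arrays, on which every non-control probe whose accession belongs to a listed gene was taken. Of 21368 gene symbols on the array these are 8, read by 11 probes of the 55681 non-control probes, with 3 for Mbp, 2 for Pmp22 and 1 for each of the others. All 11 were well above background on all 6 arrays, so none was lost to the filter on dim probes that left 30934 probes to test. All 6 mice had a C57Bl6 background and carried iDek, a Dek transgene under doxycycline control that the labels call both ubiquitous and specific to squamous cells. The no DOX group (n = 3) had the transgene and no treatment, and the DOX group (n = 3) had the transgene and doxycycline for 2 weeks. The labels used here state no age for the mice. No DOX-treated mice without the transgene were analysed here, so the drug and the induction cannot be told apart. RNA came from tongue tissue as a bulk sample, and the arrays do not separate nerve from muscle, epithelium and gland.

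Schwann cells wrap the axons of peripheral nerves. A myelinating Schwann cell builds a compacted sheath whose membranes are held together by proteins such as MBP and PMP22, while MAG lies on the membrane that faces the axon and periaxin, from Prx, on the outer surface. SOX10 sets up the lineage, and together with POU3F1 it turns on Egr2 (also called Krox20), which drives the myelin genes. In the tongue, motor and sensory branches of cranial nerves bring these cells into the muscle, beneath the epithelium and around the taste buds. Several of the 8 genes are also made elsewhere: Ngfr in basal keratinocytes, Sox10 in salivary gland cells and melanocytes, S100b in adipocytes, Pmp22 in fibroblasts and epithelia, and the Mbp locus also gives Golli transcripts in immune cells.

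Per array, 56.0% to 58.3% of probes were well above background and no spot was saturated. All 6 arrays lay on 1 slide with 1 scan. Dek itself was at 2.30, 2.10 and 2.20 in no DOX replicates 1 to 3 and at 2.41, 2.41 and 2.27 in DOX replicates 1 to 3, a log2 difference of 0.17 ± 0.11 (SE, n = 3 and 3) that did not pass (limma, adjusted p = 0.456). Here and below a level is the log2 processed signal minus the array's 75th percentile, a difference is DOX minus no DOX on that scale, and a probe was called when its Benjamini-Hochberg adjusted p over all tested probes was under 0.05. A level says nothing about another probe's level. With 3 arrays a group, precision is limited by their number.

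None of the 11 Schwann cell and myelin probes was called (limma), where 0.401% of all tested probes were. At an unadjusted p under 0.05 the count was 3 of 11, against 18.8% of all tested probes. The groups did not overlap for the same 3 probes, of Ngfr and of Mbp, against 25.5% of all tested probes with complete values. Of the 11 probes 6 had a lower and 5 a higher mean with DOX, and their median difference was -0.01, as it was over all tested probes. The no DOX mice varied more among themselves than the DOX mice for 9 of the 11 probes, as they did for 43.5% of all tested probes. The median SD of the 11 probes was 0.60 without DOX and 0.20 with DOX, while over all tested probes it was 0.16 and 0.18. In bulk tissue, fewer cells of a type and less RNA per cell cannot be told apart.

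**Figure D1:**
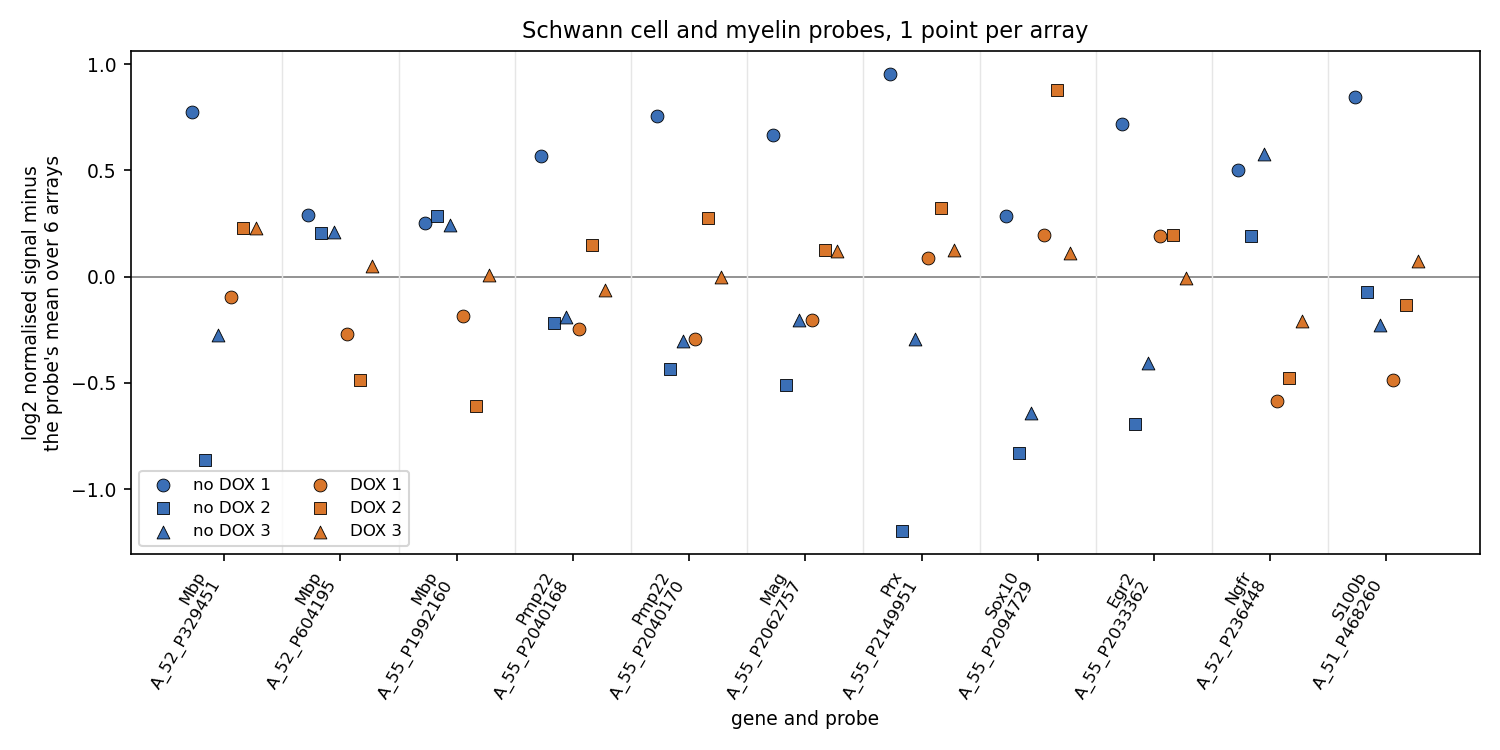
Log2 normalised signal of each of the 11 probes minus that probe's mean over the 6 arrays, with 1 point per array; blue points are no DOX, orange points DOX, and the marker shape gives the replicate. No DOX replicate 1 is the highest point for 8 of the 11 probes and no DOX replicate 2 the lowest for 6, while the groups separate for Ngfr and for 2 of the 3 Mbp probes.

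Prx encodes periaxin, which links the outer Schwann cell membrane to its surroundings. Its level was 3.41, 1.26 and 2.16 in no DOX replicates 1 to 3 and 2.54, 2.78 and 2.58 in DOX replicates 1 to 3. The no DOX mice thus lay on both sides of the DOX mice, and spanned a 4.45-fold range where the DOX mice spanned 1.18-fold. The difference was 0.36 ± 0.50 (SE, n = 3 and 3; limma, adjusted p = 0.761), with a 95% interval of the fold from 0.560 to 2.93. Mag, the adhesion receptor that faces the axon, was at -0.36, -1.54 and -1.24 without DOX and at -1.24, -0.91 and -0.91 with DOX. Here too no DOX replicate 1 was highest and no DOX replicate 2 lowest. The Mag difference was 0.03 ± 0.30 (SE; limma, adjusted p = 0.975), and the 95% interval of the fold ran from 0.618 to 1.68.

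Prx and Mag both had their highest level in no DOX replicate 1 and their lowest in no DOX replicate 2, and the 250 bases before their start sites are shown, from RefSeq on GRCm38.p6, 5′ to 3′ on the gene's strand. For Prx this is chr7:27499074-27499323 on the plus strand, and for Mag chr7:30914923-30915172 on the minus strand, before the most upstream of the 3 Mag start sites listed. Capitals mark letters that match a SOX motif.
Prx: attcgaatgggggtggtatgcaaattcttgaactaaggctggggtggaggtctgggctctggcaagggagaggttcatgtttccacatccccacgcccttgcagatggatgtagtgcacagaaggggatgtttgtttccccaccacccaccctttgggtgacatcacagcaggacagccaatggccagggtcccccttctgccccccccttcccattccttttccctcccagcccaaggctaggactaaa
Mag: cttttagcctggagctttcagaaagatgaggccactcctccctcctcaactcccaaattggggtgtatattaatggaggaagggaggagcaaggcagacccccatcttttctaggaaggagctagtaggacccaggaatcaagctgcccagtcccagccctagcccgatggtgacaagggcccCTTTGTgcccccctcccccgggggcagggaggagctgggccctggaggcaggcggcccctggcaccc
The motifs searched on both strands were ACAAAG and ACAATG for SOX factors and GCGNGGGCG for EGR factors. Windows were listed for 6 of the 8 genes, 15 in all. ACAAAG occurred on the opposite strand in the Mag window, starting 67 bases before the start site, and the same match lies in a second, overlapping Mag window. It was present in 16.5% of all 32851 windows of this length, and either SOX motif in 25.2%. The Prx window held no match to any of the 3 motifs, and no window of the 6 genes held the EGR motif, which 4.7% of all windows did. A match describes these letters and shows no binding.

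Egr2 is the zinc finger factor that turns on the myelin programme, and it is also an immediate early gene. Its level was -0.48, -1.90 and -1.61 without DOX and -1.01, -1.003 and -1.21 with DOX. As with Prx, the 3 DOX mice lay between the highest and the middle no DOX mouse. The difference was 0.25 ± 0.35 (SE, n = 3 and 3; limma, adjusted p = 0.757), and the 95% interval of the fold went from 0.665 to 2.14. In the immediate early list, 8 of 10 tested genes had a higher mean with DOX and 0 were called, with a median of 0.39 and Atf3 at 0.95 ± 0.25 (adjusted p = 0.135) and Nr4a1 at -0.89 ± 0.30 (adjusted p = 0.198). None of those 10 genes had its highest level in no DOX replicate 1, where Egr2 peaked.

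Sox10 encodes the transcription factor that defines the Schwann cell lineage. It was at 0.57, -0.55 and -0.36 in no DOX replicates 1 to 3 and at 0.48, 1.16 and 0.39 in DOX replicates 1 to 3. The groups overlapped only through no DOX replicate 1. Sox10 had the largest positive difference of the 11 probes, 0.79 ± 0.34 (SE, n = 3 and 3), a 1.73-fold higher mean with DOX that did not pass (limma, adjusted p = 0.277; 95% interval of the fold 0.983 to 3.05). In the gland and myoepithelium list 6 of 10 tested genes had a higher and 4 a lower mean with DOX, and 0 were called. Those with the smallest p were Bhlha15, a secretory cell factor, at 1.82 ± 0.28 (adjusted p = 0.0648) and Lpo, the lactoperoxidase gene, at 2.55 ± 0.46 (adjusted p = 0.0802). Car6, named after its values were seen, was at 4.16 ± 0.96. It was well above background on 2 of 3 no DOX arrays, so its no DOX mean was partly at background. On the other side Klk1, a kallikrein gene of salivary ducts, was at -4.22 ± 1.92, the water channel gene Aqp5 at -0.98 ± 0.43 and Dcpp1 at -0.76 ± 0.29 (adjusted p = 0.298, 0.283 and 0.236), named after their values were seen. The part of gland markers in the Sox10 value was not tested. In the melanocyte list 3 of 5 tested genes were higher, Tyrp1 among them, and 0 were called. Tyrp1 was well above background on 1 of 3 no DOX arrays and on all DOX arrays. It passed the filter through the DOX arrays alone, so no p is given for it. Its difference of 0.96 rests on a no DOX mean partly at background. Pmel was at -0.52 ± 0.35 (adjusted p = 0.478).

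Pmp22 encodes a tetraspan protein of compact myelin. Its brighter probe, A_55_P2040170, was at 4.08, 2.89 and 3.02 without DOX and at 3.03, 3.60 and 3.33 with DOX. No DOX replicate 1 was highest and the other no DOX mice lowest. The difference was -0.01 ± 0.33 (SE; limma, adjusted p = 0.989), with a 95% interval of the fold from 0.569 to 1.72. The second probe of the same accession, A_55_P2040168, was at 1.66, 0.87 and 0.90 without DOX and at 0.84, 1.24 and 1.03 with DOX. Its difference was -0.11 ± 0.24 (SE; limma, adjusted p = 0.860), and both probes had their highest level in no DOX replicate 1.

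Mbp, the major cytoplasmic protein of compact myelin, was read by 3 probes, of which A_52_P329451 stood apart from the others. Probe A_52_P329451 was at -0.41, -2.04 and -1.45 without DOX and at -1.27, -0.95 and -0.95 with DOX. It ordered the mice as Prx did, with no DOX replicate 1 highest and no DOX replicate 2 lowest, and its difference was 0.24 ± 0.39 (SE; limma, adjusted p = 0.794). Probe A_55_P1992160, designed to the same accession (NM_010777), was at -1.19, -1.15 and -1.20 without DOX and at -1.63, -2.05 and -1.43 with DOX. Its no DOX levels differed by no more than 1.03-fold, and all DOX levels were below them. The difference was -0.52 ± 0.17 (SE), a 1.44-fold lower mean with DOX that did not pass (limma, adjusted p = 0.183). Probe A_52_P604195, designed to NM_001025245, was at 3.05, 2.97 and 2.97 without DOX and at 2.49, 2.27 and 2.81 with DOX. It too had no overlap between the groups, and its 1.39-fold lower mean (log2 -0.47 ± 0.15, SE) did not pass either (limma, adjusted p = 0.187). The Mbp probes thus disagreed in sign, and the labels and files used here do not say which Mbp transcripts each one reads.

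Ngfr encodes the low-affinity neurotrophin receptor p75, carried by immature and non-myelinating Schwann cells and by basal keratinocytes. Its probe, spotted 10 times per array, was at 0.10, -0.21 and 0.18 without DOX and at -0.98, -0.87 and -0.60 with DOX. All DOX levels lay below all no DOX levels. The difference of -0.85 ± 0.16 (SE, n = 3 and 3), a 1.80-fold lower mean with DOX, was the largest of the 11 probes in size and had the smallest p, but it did not pass (limma, adjusted p = 0.0837; 95% interval of the fold 0.429 to 0.721, not adjusted for the number of probes). In the basal keratinocyte list 8 of 10 tested genes also had a lower mean with DOX and 0 were called, with a median of -0.35. Among these were the integrin gene Itga6 at -0.49 ± 0.13 (adjusted p = 0.133) and Col17a1, a hemidesmosome collagen gene, at -0.47 ± 0.17 (adjusted p = 0.210). The 2 genes with a higher mean were the keratin genes Krt14 at 0.43 ± 0.35 and Krt5 at 0.06 ± 0.15 (limma, adjusted p = 0.562 and 0.882). Both were named after their values were seen. The basal keratinocyte list's mean deviation ran from 0.01 to 0.32 on the no DOX arrays and from -0.26 to 0.15 on the DOX arrays, and its part in the Ngfr value was not tested. The 250 bases before the Ngfr start site, chr11:95587699-95587948 on the minus strand, are shown as those of the member with the smallest p, and they held no match to the SOX or EGR motifs.
Ngfr: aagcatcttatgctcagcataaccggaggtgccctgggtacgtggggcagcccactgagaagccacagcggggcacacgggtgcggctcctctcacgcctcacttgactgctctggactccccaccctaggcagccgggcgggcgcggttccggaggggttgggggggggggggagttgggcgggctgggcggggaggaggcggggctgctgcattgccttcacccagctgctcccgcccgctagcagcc

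S100b encodes a calcium-binding protein abundant in Schwann cells and also made by adipocytes. It was at 2.16, 1.24 and 1.09 without DOX and at 0.83, 1.19 and 1.39 with DOX. No DOX replicate 1 stood above the other 5 arrays, which overlapped. The difference of -0.36 ± 0.30 (SE; limma, adjusted p = 0.575) had a 95% interval of the fold from 0.469 to 1.29. It was -0.03 ± 0.19 without no DOX replicate 1. In the adipocyte list no DOX replicate 1 was highest for 0 of 8 tested genes. Of these genes 6 had a higher and 2 a lower mean with DOX, with a median of 0.06. The adipocyte list held the only called gene of the 15 lists, Adrb3, a receptor of adipocytes, which fell by 1.48 on the log2 scale (SE 0.18, limma, adjusted p = 0.0406). That is 1 of 168 tested list probes outside the members, where 0.401% of all tested probes were called. Retn was at 0.86 ± 0.20 (adjusted p = 0.117). Adrb3 kept its direction but no longer passed when any single array was left out (adjusted p from 0.0530 to 0.159) or with slide row as a block (-1.83, adjusted p = 0.0589).

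**Figure D2:**
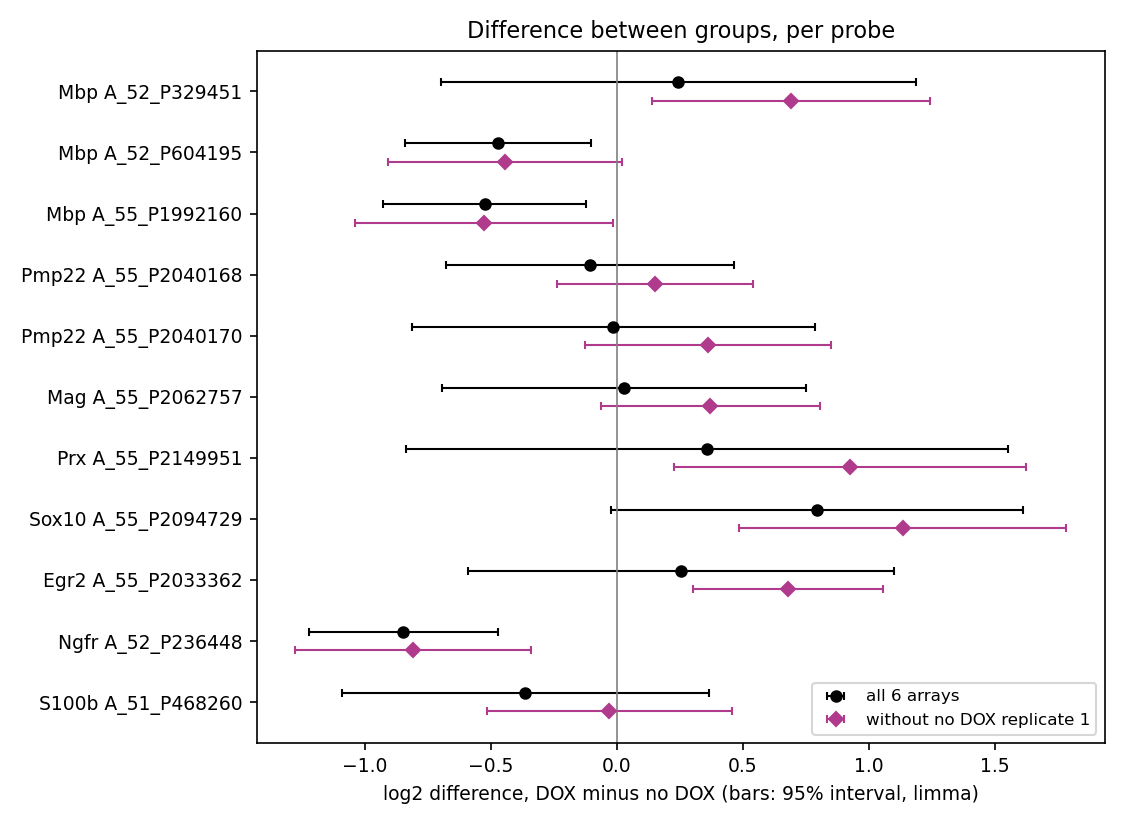
Log2 difference between the group means (DOX minus no DOX) for each of the 11 probes, with unadjusted 95% intervals from limma, over all 6 arrays (black circles) and without no DOX replicate 1 (magenta diamonds). Leaving out that array moves Prx from 0.36 to 0.92, Egr2 from 0.25 to 0.68 and Sox10 from 0.79 to 1.13, and leaves Ngfr at -0.81.

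No DOX replicate 1 had the highest of the 6 levels for 8 of the 11 probes, against 16.8% of all tested probes with complete values, and no DOX replicate 2 the lowest for 6 of 11, against 12.0%. Both held for 5 of 11 probes (Prx, Mag, Egr2, Mbp A_52_P329451 and Pmp22 A_55_P2040170), against 1.43%. These arrays were singled out from the member values, so the counts are a description. Several fitted differences, though not all, moved when 1 of these arrays was left out. Without no DOX replicate 1, 7 of the 11 probes were higher with DOX in place of 5. Prx was then at 0.92 ± 0.28 (limma, adjusted p = 0.286), a 1.90-fold higher mean. Egr2 reached 0.68 ± 0.15 (adjusted p = 0.216), Mbp A_52_P329451 0.69 ± 0.22 (adjusted p = 0.300) and Sox10 1.13 ± 0.26 (adjusted p = 0.227). Without no DOX replicate 2, Prx was at -0.15 ± 0.36 and Mag at -0.22 ± 0.28 (limma, adjusted p = 0.881 and 0.765). Ngfr was at -0.81 ± 0.19 without the former mouse and at -0.96 ± 0.16 without the latter (limma, adjusted p = 0.228 and 0.175). No member probe was called in any of these fits. The arrays filled 2 rows of the slide: row 1 held the 3 no DOX arrays and DOX replicate 1, and row 2 held DOX replicates 2 and 3. Within row 1, which alone held both groups, the difference was -1.01 ± 0.22 for Ngfr and 0.59 ± 0.51 for Sox10 (limma with row as a block, adjusted p = 0.165 and 0.664). There it was -0.51 ± 0.24 for Mbp A_52_P604195, -0.45 ± 0.25 for Mbp A_55_P1992160, 0.27 ± 0.76 for Prx, 0.32 ± 0.54 for Egr2 and -0.19 ± 0.44 for Mag, so that Mag changed sign (adjusted p from 0.404 to 0.919). These contrasts rest on 1 DOX array, which is assumed to vary like the others, since the spread comes from the no DOX arrays and the DOX arrays of row 2.

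Over the 6 mice the 55 probe pairs were also correlated, with arrays as the points. The pairs share array and normalisation, and both groups were pooled in r and in the permutation. The 3 probes without overlap, of Ngfr and Mbp, were all lower with DOX. Among them r therefore also carries that group difference. Prx and Mbp A_52_P329451 had r = 0.98 and rho = 1.00 (exact permutation p = 0.00139, the smallest that 720 orders of the arrays can give, adjusted 0.0546 for r; p = 0.00278 for rho, adjusted 0.0509). Without no DOX replicates 1 and 2, the arrays farthest from the median, r was 0.88. Prx and Egr2 had r = 0.96 and rho = 0.94 (exact permutation p = 0.00417, adjusted 0.0546; p = 0.0167 for rho, adjusted 0.0833), and r = 0.92 without the same arrays. For Mbp A_52_P329451 and Mag, r was 0.97 and rho 0.94 (exact permutation p = 0.00972, adjusted 0.0594; p = 0.0167 for rho, adjusted 0.0833), and r was 0.95 without them. Ngfr and Mag had r = 0.15 and rho = 0.14 (exact permutation p = 0.769, adjusted 0.920; p = 0.803 for rho, adjusted 0.901), with r = -0.37 without no DOX replicates 1 and 2. Ngfr and Mbp A_52_P604195 had r = 0.89 and rho = 0.89 (exact permutation p = 0.0236, adjusted 0.104; p = 0.0333 for rho, adjusted 0.122), and r = 0.87 without DOX replicates 1 and 2, there the farthest from the median. The Mbp probes A_52_P604195 and A_55_P1992160 followed each other, with r = 0.98 and rho = 0.83 (exact permutation p = 0.00556, adjusted 0.0546; p = 0.0583 for rho, adjusted 0.160), and r = 0.89 without DOX replicates 1 and 2. For Mag and Prx r was 0.93 and rho 0.94 (exact permutation p = 0.0153, adjusted 0.0764; p = 0.0167 for rho, adjusted 0.0833), and r fell to 0.73 without no DOX replicates 1 and 2. No pair passed at an adjusted p under 0.05.

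**Figure D3:**
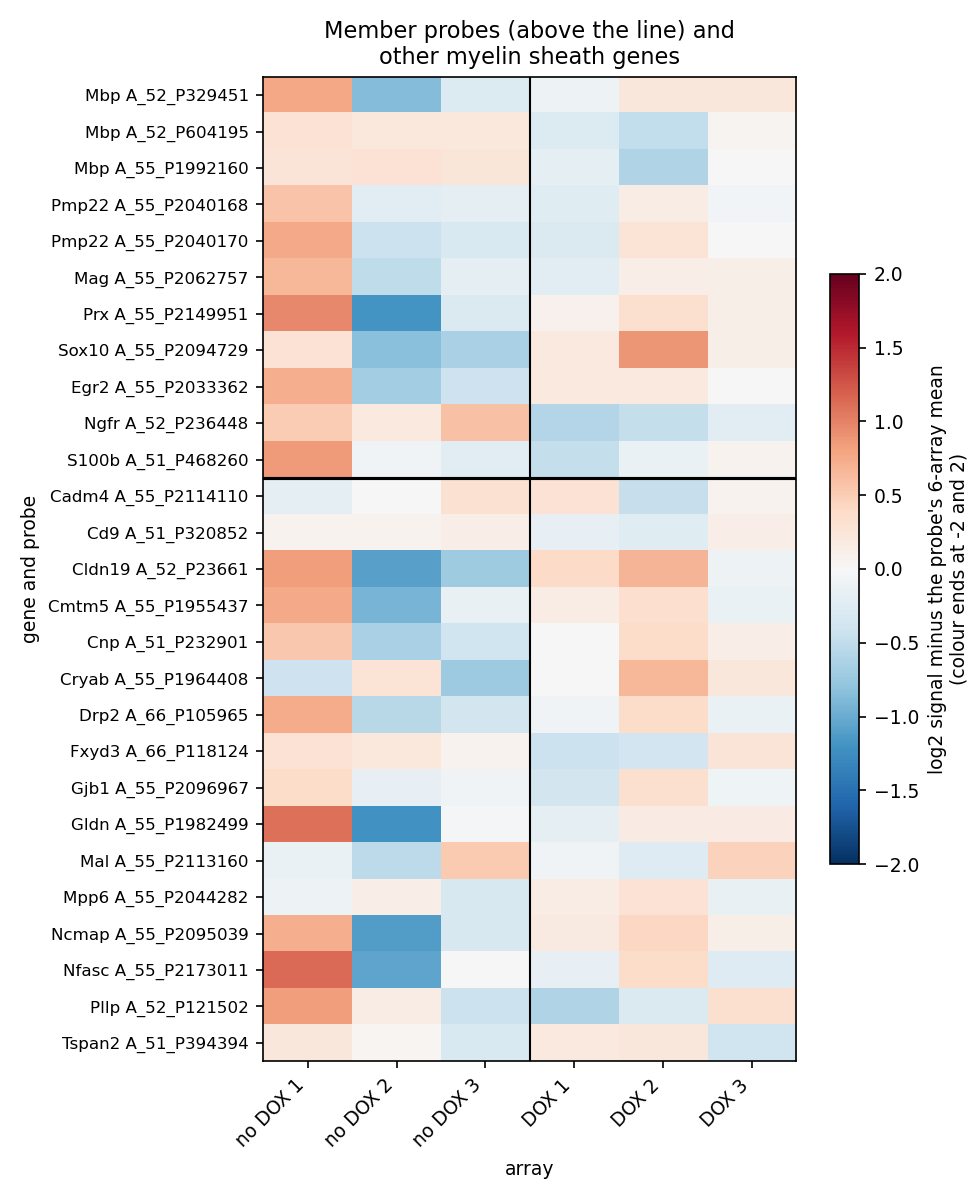
Log2 normalised signal minus the probe's mean over 6 arrays, as colour (red higher, blue lower), for the 11 member probes above the line and the brightest tested probe of 16 other myelin sheath genes below it; columns are arrays. Ncmap, Cldn19, Prx, Mag and Egr2 share a red first column (no DOX replicate 1) and a blue second column (no DOX replicate 2).

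The rest of the pathway was read from 5 lists with 70 genes, of which 62 had a tested probe. Of these 62 genes 29 had a higher and 33 a lower mean with DOX, and 0 of their 82 tested probes were called (limma), against 0.401% of all tested probes. At an unadjusted p under 0.05 there were 13 of 82, against 18.8% of all tested probes. The myelin sheath list had 10 genes higher and 6 lower, with a median of 0.09. By smallest p its members were Cryab, a small heat shock protein gene, at 0.58 ± 0.29 (adjusted p = 0.336), Fxyd3 at -0.38 ± 0.20 (adjusted p = 0.360), the tetraspanin gene Cd9 at -0.19 ± 0.13 (adjusted p = 0.475) and the tight junction gene Cldn19 at 0.64 ± 0.50 (adjusted p = 0.545). No DOX replicate 1 was the highest array for 11 of the 16 sheath genes, no DOX replicate 2 the lowest for 8, and both held for 7.

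Ncmap, which encodes a non-compact myelin protein, was at 2.77, 0.93 and 1.72 without DOX and at 2.22, 2.46 and 2.17 with DOX, a difference of 0.48 ± 0.43 (SE; limma, adjusted p = 0.611). It ordered the no DOX mice as Prx and Mag did. The connexin gene Gjb1 had a difference of -0.09 ± 0.22 (limma, adjusted p = 0.872). Of the other defining Schwann cell markers, Scn7a was well above background on 2 of the 3 no DOX and all DOX arrays, Cdh19 on 1 array of each group, and Pmp2 on none.

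In the list of myelin lipid enzymes 5 of 8 genes were higher, with a median of 0.14. Degs2, a sphingolipid desaturase gene, was at 1.80 ± 0.45 (limma, adjusted p = 0.127) with no overlap between the groups. With slide row as a block, which rests on DOX replicate 1, it was at 2.91 and passed (adjusted p = 0.0462). Gal3st1, the sulfatide-making sulfotransferase gene, was at -0.74 ± 0.24 (adjusted p = 0.186), also without overlap. Elovl1 was at 0.26 ± 0.17 and Fa2h, the fatty acid 2-hydroxylase gene, at 0.61 ± 0.54 (adjusted p = 0.448 and 0.598). Among Schwann cell transcription factors 6 of 10 were higher (median 0.06). Nab2, a corepressor of EGR factors, was at -0.41 ± 0.13 (adjusted p = 0.182), Sox2, a factor of immature Schwann cells, at -0.49 ± 0.19 (adjusted p = 0.236), Id2 at 0.29 ± 0.14 (adjusted p = 0.327) and Nab1 at -0.24 ± 0.12 (adjusted p = 0.361).

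Receptors and ligands between axon and Schwann cell were lower in 11 of 16 genes, with a median of -0.23, and the groups did not overlap for 7 of them. The neuregulin receptor genes Erbb3 and Erbb2 were at -0.54 ± 0.15 and -0.40 ± 0.14 (limma, adjusted p = 0.149 and 0.217). The neurotrophin gene Ntf3 and the receptor gene Ntrk3 were at -0.49 ± 0.15 and -0.47 ± 0.15 (adjusted p = 0.161 and 0.182). In the list of immature, non-myelinating and repair Schwann cells 9 of 12 genes were lower, with a median of -0.12. Its members with the smallest p were Ednrb at 0.81 ± 0.21 (adjusted p = 0.133), Itga8 at 0.64 ± 0.36 (adjusted p = 0.386), the growth cone gene Gap43 at -0.81 ± 0.65 (adjusted p = 0.561) and Fabp7 at -0.78. Fabp7 was well above background on all no DOX arrays and on 2 of 3 DOX arrays. It passed the filter through the no DOX arrays alone, with its DOX mean partly at background, so no p is given for it. No DOX replicate 1 was the highest array for 7 of those 12 genes.

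**Figure D4:**
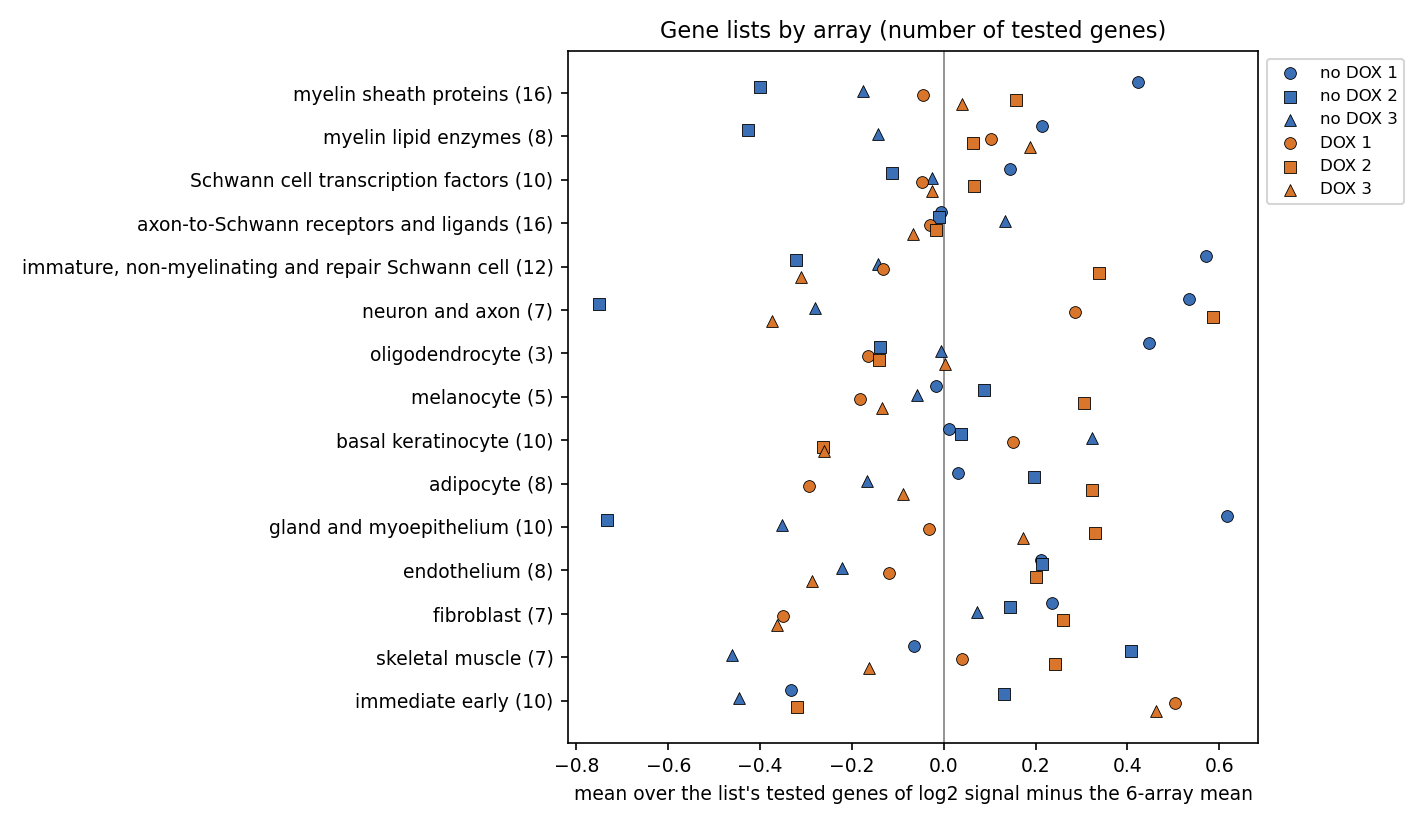
Mean over each list's tested genes (number in brackets) of the log2 signal minus the gene's mean over 6 arrays, with 1 point per array; blue is no DOX, orange DOX, and the marker gives the replicate. For myelin sheath proteins no DOX replicate 1 is at 0.42 and no DOX replicate 2 at -0.40, and for skeletal muscle these arrays are at -0.07 and 0.41.

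Markers of other cells differed between the same mice. The mean deviation of the myelin sheath list was 0.42 in no DOX replicate 1, -0.40 in replicate 2 and -0.18 in replicate 3, against -0.04, 0.16 and 0.04 in the DOX mice. The neuron and axon list was at 0.53, -0.75 and -0.28 without DOX and at 0.28, 0.59 and -0.38 with DOX, over 7 tested genes of 14. Those 7 held Calca, which was at background on the no DOX arrays, and a mean without Calca was not taken. Prph, an intermediate filament gene of peripheral neurons, was at -0.10, -3.85 and -1.71 in the no DOX mice. The gland and myoepithelium list was at 0.62, -0.73 and -0.35 without DOX and at -0.03, 0.33 and 0.17 with DOX, and Klk1 was at 6.53, -1.96 and 1.74 without DOX and between -2.45 and -1.93 with DOX. Without Klk1 the other 9 gland genes averaged -0.04, -0.60 and -0.58 without DOX and 0.23, 0.58 and 0.41 with DOX, so the high gland mean of no DOX replicate 1 rested on Klk1. Those 9 held Car6, at -1.67, -4.82 and -1.71 without DOX and at 1.11, 2.68 and 0.49 with DOX. A mean without Car6 was not taken, so its weight in these averages was not tested. That array was highest for 3 of 7 neuron genes and 4 of 10 gland genes. The part of nerve and gland markers in the member values was not tested. Skeletal muscle markers ran otherwise, at -0.07, 0.41 and -0.46 without DOX and at 0.04, 0.24 and -0.16 with DOX, and no DOX replicate 1 was highest for 0 of 7 of them.

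In the neuron list Tubb3 was at 1.00 ± 0.27 (limma, adjusted p = 0.143). The neuropeptide gene Calca was not well above background on any no DOX array. It passed the filter through the DOX arrays alone, so no p is given for it. Its DOX mean lay 1.80-fold above a no DOX floor, a lower bound on the difference of the means that has no interval. That floor was each no DOX array's dimmest probe that still cleared background, or Calca's own signal where that was higher. The oligodendrocyte list, which shares Mag, had 3 of 7 genes tested. Mobp, Opalin and Olig2, which mark the central myelin-forming cell, were not well above background on any array, while Mog was on all (difference -0.09 ± 0.11, adjusted p = 0.748) and Ermn was at -0.55 ± 0.22 (adjusted p = 0.254). Endothelial genes gave 4 of 8 higher, with Cdh5 at -0.48 ± 0.22 and Vwf at -0.33 ± 0.17 (adjusted p = 0.294 and 0.355). Fibroblast genes gave 2 of 7 higher, with Col3a1 at -1.19 ± 0.29 and Col1a2 at -0.66 ± 0.26 (adjusted p = 0.122 and 0.244). Muscle genes gave 5 of 7 higher, with Myh1 at 0.33 ± 0.21 and Acta1 at 0.12 ± 0.18 (adjusted p = 0.450 and 0.776).

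The genes outside the lists whose levels most resembled a member's were ranked by Pearson's r over the 6 arrays among 15206 other gene symbols, as a description. For Sox10 they were Smc3, Dpysl3, Creb3l2, Psip1 and Pecr, with r from 0.98 to 0.99, and for the brightest Mbp probe Slc12a5, Exph5, Olfr890, Cyp2j13 and Uvssa, all at 0.99. Mag and Ngfr were added after their values were seen. For Mag the 5 were Tnni3, Plekha4, Kcna6, Mgat3 and Aatk (r from 0.97 to 0.99), and of the listed genes Pmp22 ranked 7 among all symbols (r = 0.97). For Ngfr they were Ncoa3, Rbbp8, Sfrp1, Ubp1 and Lrrk1 (r from 0.99 to 1.00). With 6 arrays a high r is reached by many genes.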

How the data were processed

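RNA of tongue tissue from 6 mice was amplified into cRNA carrying Cy3, per the labels' protocols, and read on Agilent arrays in 1 colour. The deposited scanner files give, per the file headers, linear signal intensity per spot as Feature Extraction 11.5.1.1 computed it, of which the processed signal was used. The deposited series value table, also intensity, equals it times 1 factor per array (3.70 to 3.99), with column medians of 102.5, 94.2, 92.7, 90.01, 97.5 and 93.7 (no DOX replicates 1 to 3, then DOX); the scaling rule stays unknown.

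Outlier spots (146 to 195 per array) were left out, log2 signals averaged per probe, and each array's 75th percentile (a signal of 245.6 to 263.8) subtracted. Accessions were named through RefSeq (GRCm38.p6; 28331 probes with 1 symbol, 27350 with none). Probes that 1 or both groups showed well above background on each of their arrays were fitted with limma 3.58.1 in R 4.3.3 (two-sided, Benjamini-Hochberg). Alternatives covered background correction, normalization, filters, variance model, array weights, replicate block, probe choice, outliers, slide row and leaving out each array. The fit was tested on simulated data.

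The members, lists and rules were chosen with earlier results of these data known. All member probes were named, the 4 genes with the smallest p in each Schwann cell list and 2 in each other list, and the defining markers. Prph, Klk1, Aqp5, Dcpp1, Car6, Krt14, Krt5, Cdh19, Pmp2, Mobp, Opalin and Olig2 are listed genes outside the smallest p. Some listed genes were left out of the lists and are not reported here. The labels describe separate mice. Same-numbered mice did not deviate together over the tested probes (r = -0.115, -0.009 and 0.01), where unmatched mice had r from -0.136 to 0.149. The numbers were therefore not used as pairs, though a pairing that touches few genes could escape this check. Normexp used the median signal, the foreground column of the files used here, in place of the mean.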

Additional observations from a re-analysis of the deposited data

How the results depend on the processing

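No member probe was called in any of the 18 alternative settings. Settings that change only the filter, the variance model, the scale or the choice of probe, and the replicate block, left 63 member differences as they were by construction. Of the other 132 values 118 kept their direction and 14 turned. Ngfr (-1.01 to -0.63), Sox10 (0.55 to 1.13), S100b (-0.67 to -0.03) and the Mbp probes A_52_P604195 (-0.61 to -0.35) and A_55_P1992160 (-0.66 to -0.35) kept it in all of them. Over all probes 124 were called, against 284 with normexp, 1 with no filter on dim probes, 224 with trended and robust variance, 569 with array weights and 37 with the slide row as a block, an alternative chosen after seeing the data, as was the gland mean without Klk1. With the row block the called list probe was Degs2 in place of Adrb3. Of the list probes 1 was called, against 2 with normexp, 0 with no filter, 2 with trended and robust variance and 3 with array weights. Leaving out 1 array left 3 (without no DOX replicate 1 or 2) to 60 calls over all probes and 0 among the list probes. With the replicate number as a block, 0 probes were called over all probes and 0 among the list probes. Same-numbered mice showed no common deviation over the tested probes.

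The slide row block, which compares DOX replicate 1 with the 3 no DOX mice in the same row, turned Mag to -0.19 and Scn7a to -0.088. Normexp turned Mag to -0.0038, Prph to -0.061 and Mog to 0.0050. The percentile over detected probes turned Mag to -0.0016, and array weights turned Pmp22 A_55_P2040170 to 0.010 and Acta1 to -0.0094. When 1 array was left out, directions turned within these ranges: Mag -0.22 to 0.37, Prx -0.15 to 0.92, Egr2 -0.029 to 0.68, Mbp A_52_P329451 -0.13 to 0.69, Pmp22 A_55_P2040168 -0.24 to 0.15 and A_55_P2040170 -0.23 to 0.36, Gjb1 -0.27 to 0.072, Scn7a -0.016 to 0.63, Prph -0.87 to 1.01, Fabp7 -1.43 to 0.0041 and Acta1 -0.0013 to 0.28. Other causes of these changes were not tested. The 95% intervals of the fold for Prx, Mag and Egr2 include changes of over 1.5-fold in either direction.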
